A study of Mus musculus with 30 samples.

Results

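Levels of 10 immediate early genes were examined in mouse liver: the AP-1 genes Fos, Fosb, Jun, Junb and Jund, and Egr1, Ier2, Ier3, Klf6 and Myc. They were chosen by name, as members of the early transcriptional response, from 48440 genes in the count table. The livers were those of wild-type C57BL/6 J females, which received an osmotic pump at an age of 8 weeks. Pumps held either phosphate-buffered saline (PBS) or ACBP/DBI at 2.5 mg/mL, the acyl-CoA-binding protein made from Dbi. Anorexia was started by CRS 48 h after the pump (only these letters are in the labels; taken to mean restraint stress) or by CDDP (cisplatin, which forms DNA crosslinks) 72 h after it. There were 6 groups with 5 libraries each: PBS (PBS pump, no model), ACBP (ACBP pump, no model), CDDP and CRS (each with the PBS pump), and CDDP+ACBP and CRS+ACBP. No group had food restricted alone, so an effect of CDDP or CRS and that of eating less cannot be told apart.

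Immediate early genes are transcribed within minutes of a stimulus, without the need for new protein, because the factors that switch them on (SRF with its ternary complex partners, CREB and ATF proteins) already sit on their promoters and are activated by MAP kinases and other kinases. Fos and Jun family proteins pair through leucine zippers to form AP-1, which then controls later genes. Their mRNAs are short-lived, partly through AU-rich elements in the 3′ UTR. In liver, Fos, Jun, Egr1, Ier3, Klf6 and Myc are known to respond to partial hepatectomy, acute-phase stimuli, stress kinases and DNA damage.

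The promoter stretches below are of Fos, 2 Jun genes and Klf6. Each holds a form of the cyclic AMP response element (CRE), which CREB, ATF and Jun-containing dimers can bind. Jun and Klf6 hold the full CRE-like element, and Fos and Junb only its shortened form. Fosb also holds the shortened form, but its window is not shown. The stretches are the 120 bases before the RefSeq start site (GRCm38.p6, the assembly also called mm10), 5′ to 3′ on the gene's own strand. Capitals mark TGACATCA (a match to TGACNTCA), the shortened CRE TGACG, the TATA box TATAAA and the E-box CACGTG. The Fos window is chr12:85473770-85473889 on the plus strand, Junb chr8:84978749-84978868 on the minus strand, Jun chr4:95052223-95052342 on the minus strand and Klf6 chr13:5861369-5861488 on the plus strand.
Fos: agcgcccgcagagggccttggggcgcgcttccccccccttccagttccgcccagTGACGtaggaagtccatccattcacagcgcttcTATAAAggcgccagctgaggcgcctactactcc
Junb: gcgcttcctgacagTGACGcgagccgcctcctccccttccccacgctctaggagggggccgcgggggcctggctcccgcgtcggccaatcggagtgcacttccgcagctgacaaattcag
Jun: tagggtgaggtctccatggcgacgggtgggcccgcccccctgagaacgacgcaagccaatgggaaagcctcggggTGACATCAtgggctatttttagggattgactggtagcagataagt
Klf6: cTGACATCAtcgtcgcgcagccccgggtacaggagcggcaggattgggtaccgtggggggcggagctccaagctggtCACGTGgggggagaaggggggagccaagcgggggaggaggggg

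In the promoter table, which spans 250 bases before the start, 7 of the 10 genes were found, and Egr1, Ier2 and Myc were not among them. TGACNTCA occurred in Jun and Klf6 and in 7.49% of all 32851 promoters, and TGACG in Fos, Fosb and Junb and in 17.8%. Both strands were searched for each motif. TGACG can also match inside TGACNTCA where N is G, and such overlaps were not removed, but none of the 7 windows had one. The AP-1 element TGANTCA was in 0 of the 7 windows (6.75% of all promoters), the E-box in Klf6 (6.02%) and TATAAA in Fos (12.4%). No window held an exact CArG box, the element SRF binds, which occurred in 1.47% of all promoters. A CArG box with at most 1 mismatch was in 3 (Fos, Ier3 and Klf6), against 18.6%. Sequence beyond these 250 bases was not searched, so the counts do not show that a gene lacks SRF sites. The start of Jund in RefSeq lies upstream of its start in GENCODE, so its window is not shown, though it is counted among the 7. In the 3′ UTRs of GENCODE vM21, the AU-rich pentamer ATTTA occurred in 9 of the 10 genes, all but Ier2, and in 78.3% of genes with a 3′ UTR of 466 to 3111 bases, the members' range. The nonamer TTATTTATT was found only in Fos among the 10, and in 8.05% of those genes. It is shown in capitals within bases 645 to 674 of the Fos 3′ UTR. The part of this element in the level of Fos was not tested.
Fos 3′ UTR: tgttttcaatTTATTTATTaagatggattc

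Each library held between 13957380 and 18479134 reads on genes. All 8 hepatocyte markers were detected in every group, with a summed level of 43515 to 143614 CPM (counts scaled to library size, with TMM normalization). Of the 10 genes, 9 passed the filter on low counts, and Fosb did not. Cdkn1a, the p53 target that encodes the cell cycle inhibitor p21, was used as a check of exposure. It was at 3.23 ± 2.93 CPM (SD, n = 5) in PBS, 311 ± 129 in CDDP and 34.9 ± 24.3 in CDDP+ACBP. In CDDP+ACBP replicate 4 it was at 5.12 CPM, within the PBS range of 0.688 to 6.46 CPM. The remaining CDDP+ACBP libraries held 16.4 to 63.2 CPM. Why replicate 4 was low was not tested. CDDP replicate 5 stood apart: it was the highest CDDP library for 7 of the 10 genes, against 29.5% of all tested genes, and its TMM factor of 0.701 was the lowest of the 30. Results that rest on it are given with and without it. Muscle transcripts reached a summed 9889 CPM in PBS replicate 2, and brain transcripts 272 CPM in ACBP replicate 4, against 21.1 CPM in the lowest ACBP library.

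Per kilobase of exon, the order in PBS livers was Jund (55.4 ± 5.75 CPM per kb, SD, n = 5), Ier2 (40.2 ± 2.83), Junb (32.6 ± 4.05), Egr1 (7.14 ± 1.86), Jun (4.87 ± 2.003), Ier3 (2.92 ± 0.975), Klf6 (2.07 ± 0.468), Fos (1.69 ± 1.10), Myc (1.10 ± 0.278) and Fosb (0.0443 ± 0.0319). Jund, Ier2 and Junb did not overlap in their 5 libraries and were all above Egr1. From Egr1 down to Myc, each gene overlapped the next. Constitutively expressed Jund was thus the most abundant and Fosb was close to absent. In CDDP livers the mean order was Jund, Ier2, Junb, Egr1, Jun, Myc, Ier3, Klf6, Fos and Fosb, with Myc 3 places higher at 15.6 ± 12.6 CPM per kb.

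Most of the genes were higher after CDDP. Of 9 tested, 8 were higher after CDDP and 0 lower by edgeR's quasi-likelihood test at a Benjamini-Hochberg adjusted p under 0.05, and Fos alone did not pass. In the same comparison 41.4% of all 16304 genes tested passed, and 23.1% of all genes tested were called higher in CDDP. The median log2 fold change was 1.96 over the 9 genes and 0.018 over all genes. Without CDDP replicate 5, 5 of 9 remained called (Jund, Egr1, Ier3, Klf6 and Myc), with 3397 of 16609 genes higher, and the median fell to 1.05. With limma voom, which weights libraries by quality, 4 of the 9 were called. All 5 CDDP libraries lay above all 5 PBS libraries for Jund, Egr1, Klf6 and Myc, as for 13.3% of all genes. For these 4 a 2-sided exact permutation test gave p = 0.00794, the smallest that 5 against 5 allows, and 0.0322 after adjustment over all genes, which 24.7% of genes passed.

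**Figure D1:**
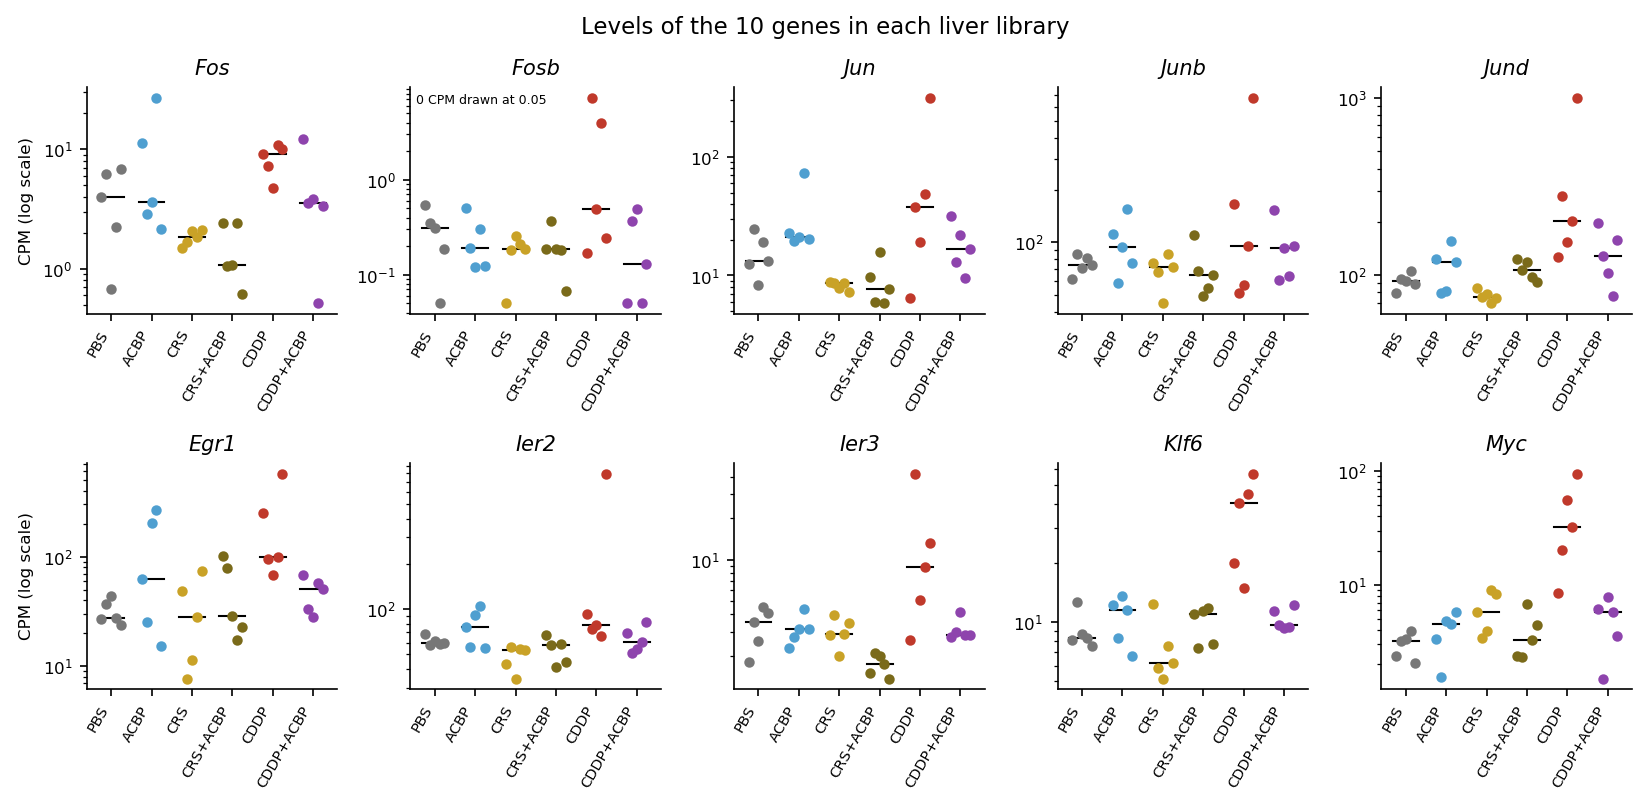
Level of each gene in CPM (log axis) in the 30 liver libraries, by group; each point is 1 library and each line the group median. The CDDP libraries lie above all PBS libraries for Jund, Egr1, Klf6 and Myc, and a single CDDP library reaches 797 CPM for Ier2 and 314 CPM for Jun.

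Myc, the E-box-binding growth regulator that drives ribosome production, changed most. Its gene (ENSMUSG00000022346) lies at chr15:61985391-61990374 on the plus strand of mm10, with 3 exons. The PBS libraries held 2.39, 3.20, 3.32, 3.94 and 2.06 CPM. The CDDP libraries held 8.48, 20.4, 56.0, 32.1 and 95.0 CPM. Every CDDP library was above every PBS library, and the CDDP livers varied widely among themselves. The log2 fold change was 3.82 ± 0.51 (SE), with an adjusted p of 2.32e-06 by edgeR, and 3.29 without CDDP replicate 5. The CDDP+ACBP libraries held 6.18, 1.49, 7.77, 5.75 and 3.57 CPM, all below the lowest CDDP library. CRS livers were at 3.43 to 9.07 CPM and overlapped PBS, ACBP livers were at 1.54 to 5.84 CPM and CRS+ACBP livers at 2.33 to 6.76 CPM.

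Klf6 encodes a zinc finger factor of the Krüppel-like family that is expressed early after liver injury (ENSMUSG00000000078, chr13:5861482-5870394, plus strand, 4 exons). In PBS it was at 8.13, 12.7, 8.73, 8.32 and 7.56 CPM, and in CDDP at 19.9, 40.4, 14.9, 44.6 and 56.9 CPM. The groups did not overlap, and replicates 2, 4 and 5 were the high CDDP libraries. By edgeR Klf6 had a log2 fold change of 1.96 ± 0.29 (SE) (adjusted p = 7.49e-06) and 1.72 without CDDP replicate 5. In CDDP+ACBP livers Klf6 was at 11.3, 9.67, 9.30, 9.45 and 12.3 CPM, again with no overlap with CDDP and within the PBS range. Klf6 had the smallest relative spread among CDDP livers after Fos, at 35.3 ± 17.6 CPM.

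Egr1, a zinc finger factor induced through SRF and Elk proteins, has its gene (ENSMUSG00000038418) at chr18:34859823-34864984 on the plus strand. The PBS libraries held 27.3, 36.9, 44.2, 27.7 and 23.9 CPM. The CDDP libraries held 248, 96.0, 68.8, 98.8 and 572 CPM. All CDDP livers were above all PBS livers, and replicates 1 and 5 stood highest. For Egr1 the log2 fold change was 2.76 ± 0.71 (SE), with an adjusted p of 0.00268 by edgeR, and 1.997 without CDDP replicate 5. The CDDP+ACBP libraries held 68.8, 33.1, 27.9, 57.2 and 51.1 CPM, and the highest of them was level with the lowest CDDP library. Egr1 also varied widely outside CDDP. ACBP livers held 62.6, 25.5, 203, 268 and 15.4 CPM, so that 2 of them reached the CDDP range and 1 was below every PBS library. CRS livers spanned 7.67 to 74.1 CPM.

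In the Jun family, Jund was the gene whose CDDP and PBS libraries did not overlap. Jund encodes the constitutive Jun protein (ENSMUSG00000071076, chr8:70698949-70700616, plus strand, 1 exon). It was at 79.2, 94.9, 92.9, 106 and 89.3 CPM in PBS and at 127, 279, 154, 202 and 1003 CPM in CDDP. CDDP replicate 5 held several times the level of any other library. For Jund the log2 fold change was 1.93 ± 0.37 (SE; edgeR adjusted p = 0.000161), and 1.05 without that library, still called. CDDP+ACBP livers held 198, 128, 103, 75.9 and 158 CPM, which overlapped both PBS and CDDP.

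Jun, the classic AP-1 subunit and target of JNK kinases, is a single-exon gene (ENSMUSG00000052684, chr4:95049034-95052222, minus strand). PBS libraries held 12.6, 24.7, 8.23, 19.04 and 13.2 CPM, and CDDP libraries 6.48, 38.1, 19.2, 48.8 and 314 CPM. The groups overlapped: CDDP replicate 1 was below every PBS library, while 3 CDDP libraries were above all of them. The log2 fold change of 2.45 ± 0.62 (SE; edgeR adjusted p = 0.00256) was 0.86 without CDDP replicate 5 (adjusted p = 0.129). The exact permutation p was 0.19. Junb, which pairs with Fos proteins and often opposes Jun, is also a single-exon gene (ENSMUSG00000052837, chr8:84974484-84978718, minus strand). It was at 61.8, 85.9, 71.5, 81.4 and 74.4 CPM in PBS and at 167, 51.3, 57.2, 95.6 and 677 CPM in CDDP. Of the CDDP libraries 3 lay above all PBS libraries and 2 below all of them. The log2 fold change of 1.48 ± 0.46 (SE; edgeR adjusted p = 0.0114) became 0.31 without replicate 5 (adjusted p = 0.458).

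All 3 Jun genes share exon sequence with a gene on the opposite strand. Whether the counting used strand is not given in the sources used here, so reads of the partners may not have been told apart. Gm11175, antisense to Jund, was at 66.1 ± 13.7 CPM in PBS and 296 ± 308 CPM in CDDP (SD, n = 5), with 840 CPM in CDDP replicate 5. Junos, antisense to Jun, was at 2.09 ± 1.05 and 8.10 ± 10.6 CPM. Both passed the same test, with log2 fold changes of 2.16 and 1.94. Prdx2, which overlaps Junb and encodes a peroxiredoxin, was at 135 ± 15.1 and 128 ± 9.49 CPM and did not pass.

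Fos itself, the inducible partner of the Jun proteins (ENSMUSG00000021250, chr12:85473890-85477273, plus strand, 4 exons), was low and varied within PBS. The PBS libraries held 3.95, 6.22, 0.676, 2.22 and 6.75 CPM, and the CDDP libraries 9.10, 7.24, 4.72, 10.8 and 10.1 CPM. Of the CDDP libraries 4 were above all PBS libraries, and CDDP replicate 3 overlapped them. The log2 fold change of 1.08 ± 0.62 (SE) did not pass (edgeR adjusted p = 0.164), and the exact permutation p of 0.0317 was 0.0837 after adjustment over all genes. Fos was the member with the smallest spread among CDDP livers, and CDDP replicate 5 was not its highest. The highest Fos level of all 30 libraries was 26.9 CPM in ACBP replicate 4, the library with brain transcripts. That library was also the highest ACBP library for 7 of the 10 genes, against 19.3% of all tested genes; the part of the brain transcripts in this was not tested.

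Fosb, a Fos paralog (ENSMUSG00000003545, chr7:19302696-19310051, minus strand), had 10 or more reads in only 2 libraries. These were CDDP replicate 2, with 131 reads (7.30 CPM), and CDDP replicate 4, with 78 reads (3.93 CPM). The other 3 CDDP libraries were at 0.171, 0.494 and 0.242 CPM, and PBS libraries at 0.538, 0.349, 0.307, 0 and 0.188 CPM, so the groups overlapped. In a fit without the filter on low counts edgeR gave a log2 fold change of 3.11 (adjusted p = 0.0101), which rests on those 2 livers. The highest Jun, Junb and Jund were in CDDP replicate 5. After it, replicates 2 and 4 were the next highest CDDP libraries for Jun (38.1 and 48.8 CPM) and Jund (279 and 202 CPM). For Junb they were at 51.3 and 95.6 CPM, both below CDDP replicate 1 at 167 CPM.

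Ier2 and Ier3 are early response genes outside the AP-1 family. Ier2 encodes a nuclear regulator (ENSMUSG00000053560, chr8:84661331-84662852, minus strand, 1 exon). It was at 68.5, 57.9, 61.7, 58.7 and 59.3 CPM in PBS and at 93.5, 73.4, 78.1, 65.9 and 797 CPM in CDDP. A single CDDP library was thus far above the rest, 3 of which lay just above the PBS range and 1 within it. The log2 fold change of 1.85 ± 0.46 (SE; edgeR adjusted p = 0.00204) became 0.34 without CDDP replicate 5 (adjusted p = 0.148). Ier3 encodes an inhibitor of stress-induced cell death and is a target of NF-κB and p53 (ENSMUSG00000003541, chr17:35821684-35822923, plus strand, 2 exons). It was at 1.79, 3.55, 2.58, 4.50 and 4.06 CPM in PBS and at 2.62, 42.1, 5.10, 8.87 and 13.2 CPM in CDDP. Here replicate 2 was the high library, 4 of 5 CDDP livers were above all PBS livers and replicate 1 was within their range. For Ier3 the log2 fold change was 2.12 ± 0.44 (SE, edgeR adjusted p = 0.000371) and 2.15 without CDDP replicate 5. The exact permutation p of Ier3 was 0.0556, and 0.126 after adjustment over all genes. Limma voom did not call Ier3 (adjusted p = 0.0648). Without replicates 2 and 5 together, a choice made after seeing these values, Jund, Egr1, Klf6 and Myc were called and Ier3 was not.

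**Figure D2:**
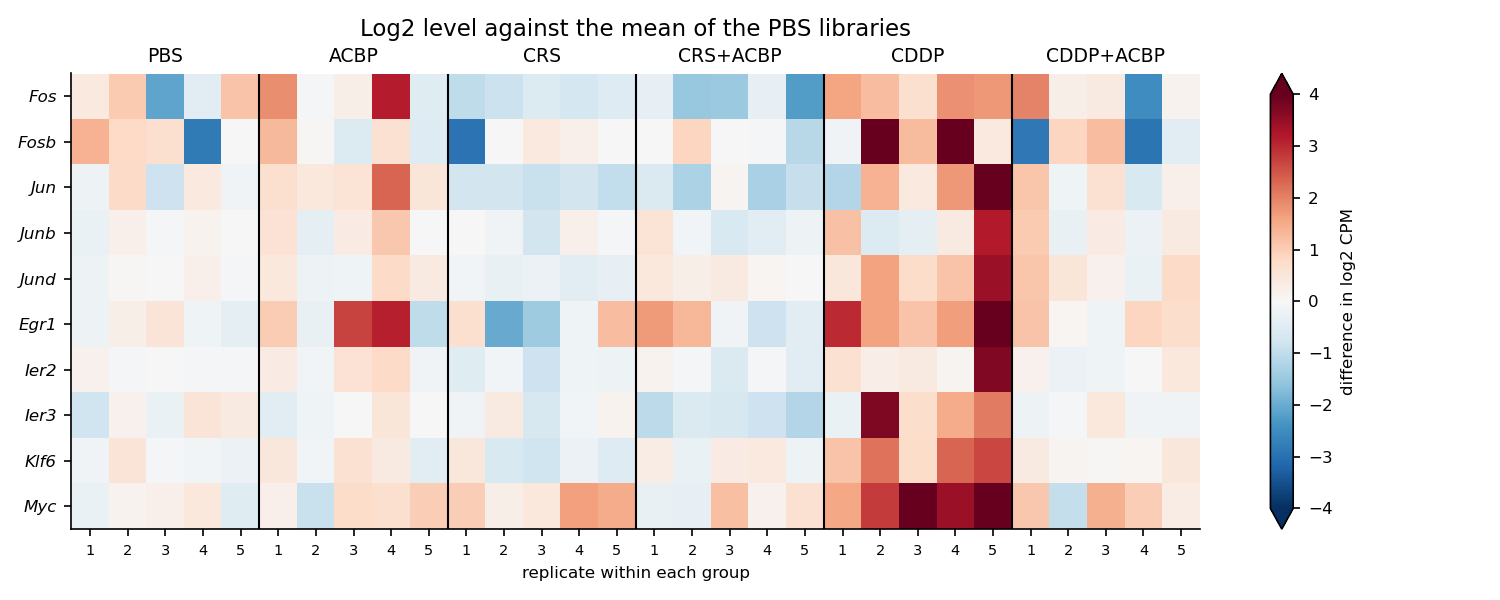
Difference in log2 CPM of each gene (rows) in each library (columns, by group and replicate) from the mean of the 5 PBS libraries; red is higher, blue lower, and values beyond 4 in size take the end colour. CDDP replicate 5 is the darkest column for the Jun genes, Egr1 and Ier2, replicate 2 for Ier3, and replicates 2 and 4 for Fosb, while Myc is high in all 5 CDDP libraries.

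The library with the highest level differed between genes. Replicate 5 led for Jun, Junb, Jund, Egr1, Ier2, Klf6 and Myc, replicate 2 for Ier3 and Fosb, and replicate 4 for Fos. Replicate 1, the lowest CDDP library for Fosb, Jun, Jund, Ier3 and Myc, was still second highest for Egr1, Junb and Ier2. Beside its high member levels, CDDP replicate 5 held the highest hepatocyte marker sum of its group (143614 CPM) and the lowest cholangiocyte (21.1 CPM), endothelial (76.6 CPM) and stellate sums (134 CPM). Its muscle sum of 904 CPM was also the highest, against 14.7 to 336 CPM in the other CDDP libraries, though under the limit by which libraries rich in muscle were left out. Its neutrophil and monocyte marker sum of 44.2 CPM was second to the 84.4 CPM of replicate 4. The part of these differences in the members' levels was not tested.

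**Figure D3:**
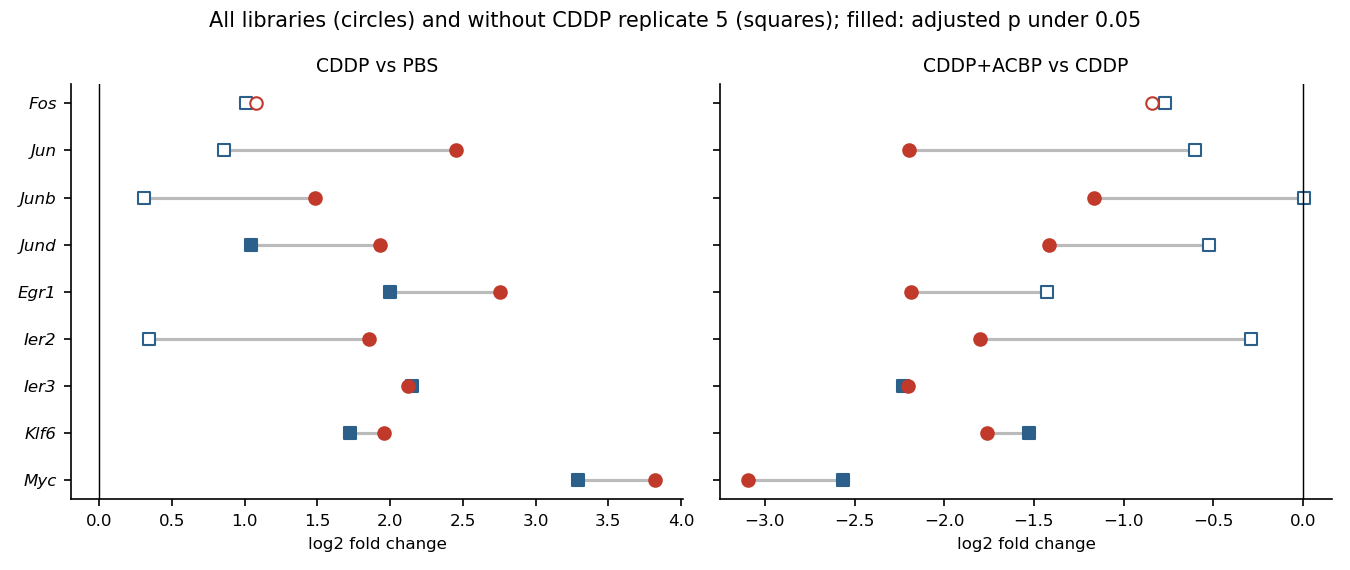
Log2 fold change of the 9 genes tested with all libraries (circles) and without CDDP replicate 5 (squares), for CDDP against PBS and CDDP+ACBP against CDDP; filled symbols have an adjusted p under 0.05. Jun, Junb and Ier2 lose their call in both comparisons when that library is left out, while Ier3, Klf6 and Myc keep it.

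The ACBP pump in mice given CDDP was tested as CDDP+ACBP against CDDP. It went with lower levels of 8 of the 9 genes by edgeR, again all but Fos, and 0 were higher. In that comparison 33.8% of all genes tested passed, and 18.8% of all genes tested were called lower. The median was −1.80 over the 9 genes and −0.0088 over all genes. The median of the 9 was −0.77 without CDDP replicate 5. This comparison uses the same CDDP libraries as CDDP against PBS, so the directions of both are not independent. The largest difference was that of Myc at −3.09 ± 0.49 (SE; adjusted p = 3.55e-05). Klf6 differed by −1.76 ± 0.28 (adjusted p = 4.38e-05) and Ier3 by −2.20 ± 0.44 (adjusted p = 0.000414). These 3 were also the ones called without CDDP replicate 5, when 2672 of 16609 genes were lower. A fit of only those groups called 4 of the 9 and limma voom 2.

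The other 5 were not called without CDDP replicate 5. Junb had passed only narrowly (adjusted p = 0.0488) and lost its call under 30 of 39 alternatives, among them RLE normalization (adjusted p = 0.0502). Without it the log2 fold change of Jun went from −2.20 to −0.60, of Egr1 from −2.19 to −1.42, of Jund from −1.41 to −0.53 and of Ier2 from −1.80 to −0.29. That of Junb went from −1.17 to 0.0056. By exact permutation no gene of the 16304 passed after adjustment in this comparison. All CDDP+ACBP libraries lay below all CDDP libraries for Myc and Klf6, as for 8.08% of all genes (exact permutation p = 0.00794, adjusted 0.0561). Ier3 in CDDP+ACBP was at 2.73, 2.97, 4.19, 2.85 and 2.85 CPM, a narrow set that overlapped the lowest CDDP library.

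With the ACBP pump on both sides, CDDP+ACBP against ACBP, edgeR called 0 of the 9 genes and 0.129% of all genes. None of the 9 had an unadjusted p under 0.05, and DESeq2 and limma voom also called 0. Myc was at 4.95 ± 2.45 CPM in CDDP+ACBP and 4.02 ± 1.65 in ACBP, with a log2 fold change of 0.30 ± 0.47 (SE). Those of Klf6 and Ier3 were −0.0086 ± 0.28 and −0.0071 ± 0.43. In the interaction, which asks whether the CDDP effect differed between the pumps, 7 of 9 genes had an adjusted p under 0.05 and were lower under ACBP, against 19.7% of all genes called and 11.3% called lower. The values were −4.03 ± 0.97 for Egr1, −3.52 ± 0.68 for Myc, −3.21 ± 0.86 for Jun, −2.13 ± 0.61 for Ier3, −2.13 ± 0.64 for Ier2, −1.97 ± 0.40 for Klf6 and −1.69 ± 0.51 for Jund (log2, SE). Fos at −2.07 (adjusted p = 0.0905) and Junb at −1.57 (adjusted p = 0.0823) did not pass. Without CDDP replicate 5 the interaction kept Egr1 (−3.27), Ier3 (−2.16), Klf6 (−1.73) and Myc (−2.99), while Jun was at −1.62 (adjusted p = 0.0638), Jund at −0.80 (adjusted p = 0.0711) and Ier2 at −0.62 (adjusted p = 0.0914). In the fit without CDDP replicate 5, 1729 of 16609 genes were called lower in the interaction. Without the 7 libraries rich in muscle or brain transcripts the interaction had 3 of the 9, and by limma voom 2. The share of all genes called in those fits is not given here, so these counts cannot be set against it.

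**Figure D4:**
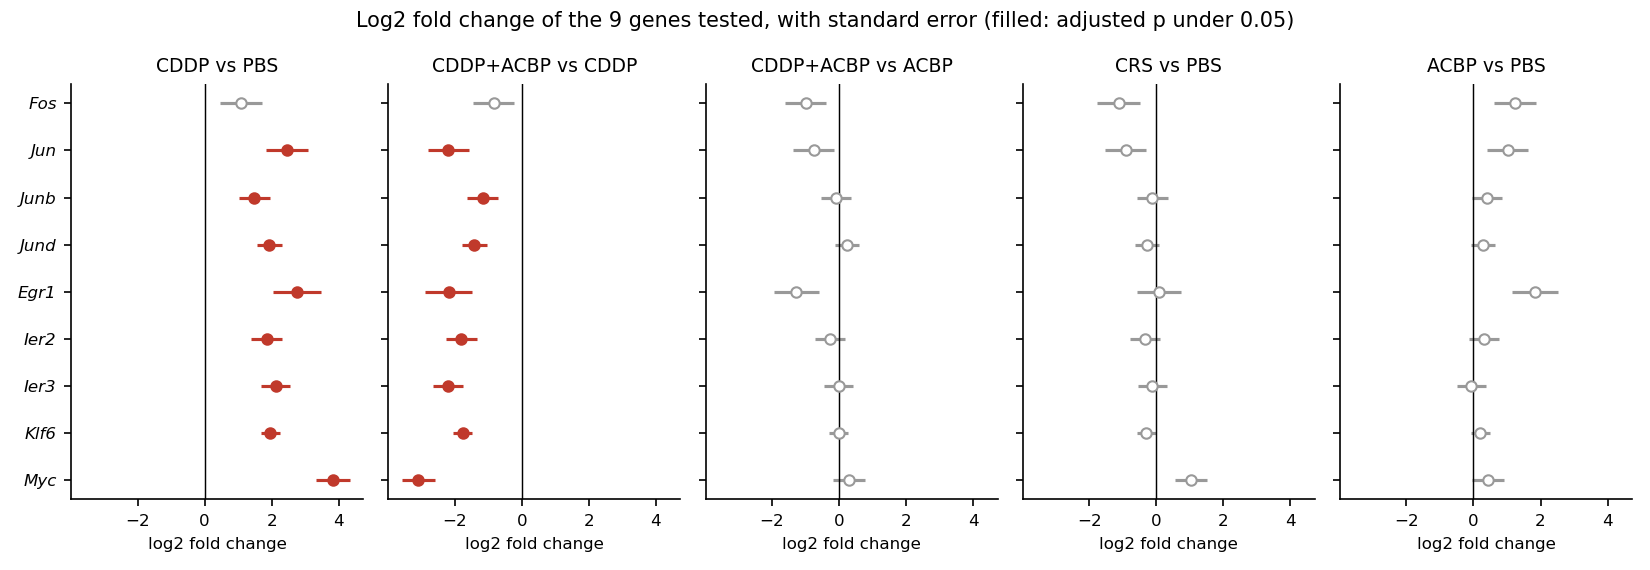
Log2 fold change (edgeR, with SE) of the 9 genes tested in 5 comparisons; filled points have an adjusted p under 0.05. Of the 9 genes 8 are called higher in CDDP against PBS and lower in CDDP+ACBP against CDDP, and 0 in the other 3 comparisons.

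No member passed in CRS. Against PBS, edgeR called 0 of the 9, as did limma voom, and 0.141% of all genes (23) were called by edgeR. DESeq2 also called 0, but gave no adjusted p for Ier2. Myc was the only member with an unadjusted p under 0.05, at a log2 fold change of 1.02 ± 0.48 (SE; adjusted p = 0.539). Its CRS libraries held 5.78, 3.43, 3.90, 9.07 and 8.23 CPM, of which 3 were above all PBS libraries. Fos in CRS was uniform, at 1.47, 1.66, 2.05, 1.84 and 2.10 CPM, near the low end of the PBS range. Jun was likewise uniform, at 8.73, 8.65, 7.81, 8.65 and 7.31 CPM. Neither Fos (log2 fold change −1.12, adjusted p = 0.62) nor Jun (−0.92, adjusted p = 0.686) passed. Ier2 at 43.3, 56.3, 34.3, 54.7 and 53.6 CPM lay below all PBS libraries, as did 2.04% of all genes; its exact permutation p of 0.00794 was 0.184 after adjustment.

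CDDP and CRS, both with the PBS pump, differed in all 9 genes tested, each higher in CDDP, where 34.6% of all genes passed and 19.5% were higher. The CDDP libraries are those used above. Fos, which CDDP against PBS did not call, was 2.198 ± 0.65 (log2, SE) higher in CDDP than in CRS (edgeR adjusted p = 0.00983), with no overlap between the groups. Jund, Ier2 and Klf6 also did not overlap (exact permutation p = 0.00794, adjusted 0.0413). Of all genes tested, 10.1% had every CDDP library above every CRS library, and 19.2% passed the permutation test after adjustment. Myc did overlap, since CDDP replicate 1 at 8.48 CPM was below CRS replicate 4 at 9.07 CPM. Without CDDP replicate 5, 8 of 9 were called higher, all but Junb, with 2761 of 16609 genes higher.

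The ACBP pump alone, against PBS, gave 0 called members with edgeR, DESeq2 and limma voom, and 0 of all genes with edgeR. Egr1 had an unadjusted p of 0.0115 and a log2 fold change of 1.84 ± 0.68 (SE; adjusted p = 0.999). Its 2 high libraries were ACBP replicates 3 and 4. Fos held 11.2, 2.88, 3.59, 26.9 and 2.15 CPM and Jun 22.6, 19.5, 21.3, 73.7 and 20.4 CPM in ACBP livers, with replicate 4 highest in both. In Jun the other 4 ACBP libraries were close to each other and within the PBS range.

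No member passed between the CRS groups either. CRS+ACBP against CRS gave 0 called of 9 and 0 of all genes by edgeR, with no member at an unadjusted p under 0.05; DESeq2 and limma voom called 0. Jund was at 124, 107, 119, 97.4 and 91.1 CPM in CRS+ACBP and at 84.4, 75.1, 78.1, 69.3 and 73.9 CPM in CRS. These groups did not overlap, as for 0.319% of all genes, but the exact permutation p of 0.00794 was 0.839 after adjustment. The CRS interaction with ACBP gave 0 members by all 3 tools, with no unadjusted p under 0.05, and 0 of all genes by edgeR. CRS+ACBP against ACBP gave 0 members and 0 of all genes by edgeR. Fos (−2.62 ± 0.66, log2, SE) and Jun (−1.81 ± 0.62) had unadjusted p-values of 0.000448 and 0.00659, and adjusted ones of 0.409 and 0.538. DESeq2 called 1 gene there, Fos, at −2.65 (adjusted p = 0.0451), and limma voom 0. Jun and Ier3 in CRS+ACBP lay below all ACBP libraries, as for 1.11% of all genes. Ier3 was at 1.49, 2.09, 2.003, 1.74 and 1.36 CPM there, the lowest of the 6 groups by mean.

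Other genes of the pathway were taken from lists named for their known roles. For scale, 41.4% of all genes tested were called in CDDP against PBS, and 23.1% were called higher. Of 14 further bZIP proteins that pair with Fos or Jun proteins, 6 rose and 5 fell in CDDP against PBS (5 and 5 without CDDP replicate 5), with a median log2 fold change of 0.051. Fosl2, a Fos paralog, rose by 2.08 (9.15 ± 1.70 to 38.9 ± 35.2 CPM). Batf3 and Maf, which have roles in dendritic cells and macrophages, fell by 1.99 and 1.38. Atf3 and Fosl1, picked out here after their values were seen, rose by 3.71 and 3.48. Fosl2 rose by 1.35, Atf3 by 2.04 and Fosl1 by 3.77 without CDDP replicate 5.

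Of 40 other early response genes, 35 were tested, and 16 rose and 4 fell after CDDP (9 and 6 without CDDP replicate 5), with a median of 0.67 against 0.018 for all genes. That median was 0.25 without CDDP replicate 5. Over all genes tested, 23.1% were called higher after CDDP. Btg2, an antiproliferative p53 target, rose most among the named genes, by 4.69, from 11.2 ± 4.82 to 290 ± 472 CPM, with 1130 CPM in the highest CDDP library; without CDDP replicate 5 it rose by 2.83. Its relative Btg1 rose by 1.52, and Cebpd, an acute-phase transcription factor, by 2.60. They rose by 0.82 and 1.76 without CDDP replicate 5. Klf10, a TGF-β-induced relative of Klf6, fell by 2.09, from 76.2 ± 26.5 to 17.9 ± 12.4 CPM. In CDDP+ACBP against CDDP, 14 were lower and 2 higher (6 and 2 without CDDP replicate 5). There, 18.8% of all genes tested were called lower. In CRS against PBS, 33 of these 35 genes had a log2 fold change below 0, but 0 passed by edgeR. Their median was −0.54, against 0.0016 for all genes. The count of directions is a description, since all genes share each library's scaling.

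Upstream components made up the next list. Of 25 kinases and factors of the MAP kinase, SRF and CREB pathways, 5 rose and 2 fell (4 and 4 without CDDP replicate 5), with a median of 0.13. That 5 of 25 rose is no larger a share than the 23.1% of all genes called higher. Mapkapk2, a p38 substrate that stabilises AU-rich mRNAs, rose by 1.65 and Map2k4, a JNK activator, by 0.79, against 0.86 and 0.77 without CDDP replicate 5. Rps6ka1, an ERK-activated kinase, fell by 1.19 and Map2k7, the other JNK activator, by 0.63. Of 12 feedback inhibitors of MAP kinases, 5 rose and 1 fell (5 and 0 without CDDP replicate 5), with a median of 0.013. The phosphatase genes Dusp8 (4.30), Dusp4 (2.71), Dusp5 (1.43) and Dusp16 (1.28) rose, in log2 units. Dusp8 rose by 2.84 without CDDP replicate 5, and the other 3 also passed then.

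The lists around Myc held its partners and its known targets. Of 12 genes of the Max and Mlx network and Myc paralogs, 0 rose and 2 fell: Max, the obligate partner of Myc, by 0.42, and Mlxipl, the carbohydrate-responsive factor, by 1.27. Neither passed without CDDP replicate 5. Of 20 nucleolar, ribosome biogenesis and polyamine genes that Myc is known to drive, 13 rose and 0 fell after CDDP. Without CDDP replicate 5, 12 rose and 0 fell. The median with all libraries was 0.67. Over all genes tested, 23.1% were called higher after CDDP. Odc1, the rate-limiting enzyme of polyamine synthesis, rose by 2.11, from 20.6 ± 4.15 to 88.9 ± 47.1 CPM, and was at 20.8 ± 5.46 CPM in CDDP+ACBP. The ribosome assembly factor Rrp12 rose by 1.85, the nucleolar helicase Ddx21 by 1.36 and spermidine synthase, Srm, by 1.01. In CDDP+ACBP against CDDP, 15 of the 20 were lower and 0 higher, also without CDDP replicate 5. With all libraries, 18.8% of all genes tested were called lower there. In CRS against PBS and ACBP against PBS, 0 of the 20 passed by edgeR.

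**Figure D5:**
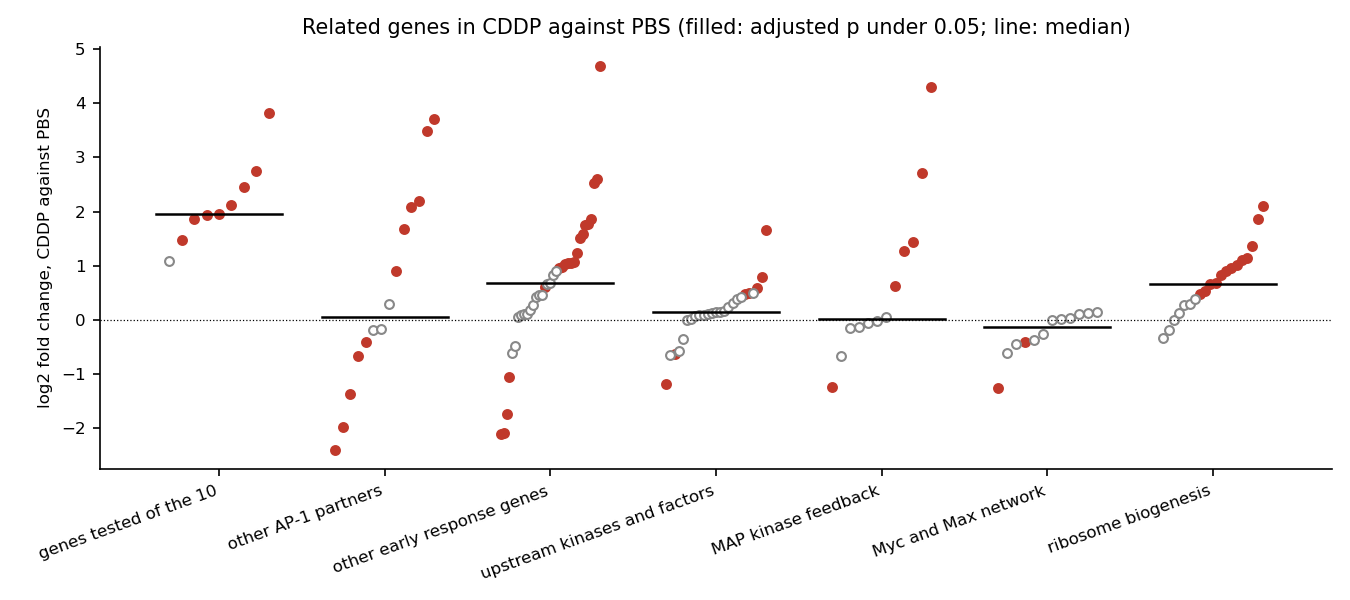
Log2 fold change in CDDP against PBS (vertical axis) of the 9 genes tested and of 6 lists of related genes; each point is 1 gene, filled at an adjusted p under 0.05, and the lines are medians. The ribosome biogenesis genes lie mostly above 0 (13 of 20 called higher, 0 lower), while the other AP-1 partners split into 6 higher and 5 lower. Over all genes tested, 23.1% were called higher.

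Across libraries of the same group, the members varied together only in part. Over the 36 pairs of tested members, Pearson's r of the deviations from group means over the 30 libraries had a median of 0.41 and ranged from −0.083 to 0.86. Without CDDP replicate 5 the median was 0.23. These are descriptions, since all genes share each library's depth and scaling. Of the non-member genes, Jund varied most like Gm11175 on its own opposite strand (r = 0.98), then Btg1 and Btg2 (both 0.89). Without CDDP replicate 5 these were 0.96, 0.70 and 0.79. Jun also varied most like Gm11175 (0.87) and Junos (0.84), which were 0.74 and 0.73 without that library. Junb varied most like Zfp36 (0.88), which encodes the AU-rich mRNA decay factor tristetraprolin, then Repin1 (0.86) and the chemokine gene Cxcl1 (0.84). For Junb the values without CDDP replicate 5 were 0.73, 0.67 and 0.70. Fos varied most like Csnk1g1 (0.72) and the early response phosphatase gene Dusp1 (0.70), values that were as high without CDDP replicate 5 (0.72 and 0.70). Ier2 varied most like Cblc (0.91), Usf1 (0.89) and Ctdsp2 (0.89), which were 0.57, 0.57 and 0.27 without that library. For Ier3 the closest were Pmm1 (0.82) and Cidec (0.77), for Klf6 Cast (0.75), for Egr1 the transcript 9330162G02Rik (0.70) and for Myc Pus7 (0.71). Without CDDP replicate 5 these were 0.84, 0.77, 0.68, 0.65 and 0.69. Without the whole CDDP group, Ier3 was at 0.40 with Pmm1 and 0.028 with Cidec.

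Markers of other cells moved in CDDP against PBS, where 41.4% of all genes tested passed and 23.1% were called higher. In CDDP+ACBP against CDDP, 33.8% of all genes passed and 18.8% were called lower. In bulk liver, fewer cells of a type and less RNA per cell cannot be told apart. Of 8 neutrophil and monocyte markers, 5 were tested and 3 rose after CDDP; their summed level was 6.86 to 8.67 CPM in PBS, where Mpo was at 0 in all libraries, 21.96 to 84.4 CPM in CDDP and 4.93 to 14.1 CPM in CDDP+ACBP. Of 8 Kupffer cell markers, 6 fell and 1 rose, with sums of 292 to 349 CPM in PBS, 153 to 226 CPM in CDDP and 163 to 232 CPM in CDDP+ACBP. Of 8 B and plasma cell markers, 7 fell, from 30.8 to 40.8 CPM in PBS to 2.28 to 13.3 CPM in CDDP, and sums in CDDP+ACBP were 21.4 to 61.3 CPM. Erythroid marker sums were 257 to 470 CPM in PBS, 6.97 to 9.33 CPM in CDDP and 166 to 1221 CPM in CDDP+ACBP. Of 8 hepatocyte markers, 2 rose and 3 fell after CDDP, and 2 were higher and 2 lower in CDDP+ACBP against CDDP, while their sums overlapped in all 3 groups. Calls after CDDP were 1 higher and 5 lower of 8 endothelial markers tested, 0 higher and 5 lower of 8 T and NK cell markers, 0 higher and 4 lower of 8 stellate cell markers and 3 higher and 0 lower of 5 cholangiocyte markers. Reads on mitochondrial genes made up 9.24% to 13.5% of gene counts in PBS, 2.74% to 3.81% in CDDP and 5.43% to 12.6% in CDDP+ACBP. The part of these cell markers and of the mitochondrial share in the members' differences was not tested.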

How the data were processed

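The authors deposited 1 table of raw, not normalized, counts per gene for 30 liver mRNA libraries (6 groups of 5). Per the labels' protocols, strand-specific mRNA libraries were made from total RNA purified on columns. HISAT2 2.2.1, HTSeq 2.0.3 and the build mm10 are named in the submitters' processing notes. Annotation release and strand setting of the counting: not given in the sources used here. Of the gene identifiers, 99.2% matched GENCODE vM21, the source of positions. The 5 summary lines of unassigned reads (median 62.0% of reads) entered neither library sizes nor tests.

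The main test was the quasi-likelihood F test of edgeR 4.0.16 (R 4.3.3), after TMM scaling and filterByExpr, with all 30 libraries fitted together (24 residual degrees of freedom) and 10 comparisons drawn from that fit. P-values were adjusted by Benjamini-Hochberg over 16304 genes, and genes were called under 0.05. The SE is the size of the log2 fold change over the square root of F. CPM are counts over TMM effective library sizes, and log2 CPM add 0.5 counts. Single genes were also compared by 2-sided exact permutation of mean log2 CPM over the 252 splits of 5 against 5, adjusted over all genes. The test was tried on simulated data. Alternatives were RLE normalization, no filter or 1 CPM in 5 libraries, glmTreat against a 1.5-fold change, DESeq2 1.42.0, limma 3.58.1 voom with sample weights, fits restricted to the compared groups, leaving out each library, and, added after seeing the data, leaving out 7 libraries rich in muscle or brain transcripts or CDDP replicates 2 and 5.

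The labels name no batch and pair no libraries, and do not say that each library is a separate animal, so p-values measure the spread between these libraries, which may be partly technical. Replicates within a group all differed beyond sampling noise (chi-square per degree of freedom of at least 22.95). The members and gene lists were chosen with earlier results of these data known. Named were all members, up to 4 called genes of each other list with the smallest p in CDDP against PBS, and for each member the 3 genes closest in within-group variation, of which a part is printed. Some genes that the rule names are not reported here. Figures were drawn with matplotlib 3.10.9, and permutations run with numpy 2.4.6 under Python 3.11.15, with tables handled in pandas 2.3.3.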

Additional observations from a re-analysis of the deposited data

Results flagged for a closer look

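A Dixon test on CPM, not log2 CPM, was run in 60 sets of 5 libraries (10 genes in 6 groups). On this scale gaps at high levels weigh more than on the log2 scale. About 3 flags by chance would hold only for independent sets with a normal spread, whereas these sets share libraries. The number flagged is therefore a description. The highest or lowest library stood apart from the other 4 in 10 sets. CDDP replicate 5 accounted for 4 of them, with 314 CPM for Jun, 677 CPM for Junb, 1003 CPM for Jund and 797 CPM for Ier2. Ier3 was at 42.1 CPM in CDDP replicate 2, and Jun at 73.7 CPM in ACBP replicate 4. Smaller gaps were those of Fos at 12.1 CPM and Ier3 at 4.19 CPM in CDDP+ACBP replicates 1 and 3, and of Klf6 at 12.7 CPM in PBS replicate 2. Fosb at 0 CPM in CRS replicate 1 is a difference of a few reads.

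The effect of CDDP differed between the PBS and ACBP pumps by the interaction term of edgeR for 7 genes. The log2 differences were −1.97 for Klf6, −2.13 for Ier3, −3.52 for Myc, −4.03 for Egr1, −3.21 for Jun, −2.13 for Ier2 and −1.69 for Jund. Without CDDP replicate 5, Jun was at −1.62 (adjusted p = 0.0638), Ier2 at −0.62 (adjusted p = 0.0914) and Jund at −0.80 (adjusted p = 0.0711). For Klf6, Ier3, Myc and Egr1 the call was also made without CDDP replicate 5, while for Ier3 it was lost without CDDP replicate 2 (−1.18, adjusted p = 0.0693).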

How the results depend on the processing

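Of 3500 values of single genes under the alternatives, 3407 kept their side of the threshold, 87 were no longer called and 4 became called. The other 2 were called values that reversed. Most of the 3500 values are of members not called in the main fit, and most alternatives leave out a single library. The 3407 therefore do not measure how stable the calls were. Among the 3407, 50 values that were called in neither fit changed sign. The reversed values were both of Junb in CDDP+ACBP against CDDP, 0.11 with limma voom and, over single libraries left out, from −1.42 (without CDDP+ACBP replicate 1) to 0.0056 (without CDDP replicate 5); this call was lost under 30 of 39 alternatives. The cause was not tested. Of the 8 members called in CDDP against PBS, limma voom called 4, as did the fit without CDDP replicates 2 and 5, and leaving out single libraries gave 5 to 8. In CDDP+ACBP against CDDP, also 8, the fit of only those groups gave 4, limma voom 2, the fit without CDDP replicates 2 and 5 gave 2, and leaving out single libraries 3 to 8. The interaction of CDDP and ACBP had 7 members, 4 by glmTreat, 2 by limma voom, 3 without the libraries rich in muscle or brain transcripts, 3 without CDDP replicates 2 and 5, and 4 to 8 without single libraries. In CDDP against CRS, 8 to 9 were called without single libraries. In CRS+ACBP against ACBP, DESeq2 called 1 (Fos). The other comparisons without calls stayed at 0 under all alternatives run. Klf6 and Myc were called in CDDP against PBS, CDDP+ACBP against CDDP and the interaction under each alternative named here. Besides CDDP replicate 5 and that Junb value, single libraries changed the interaction calls of Ier3 (lost without CDDP replicate 2), Fos (gained without CDDP+ACBP replicate 1, −2.80) and Junb (gained without CDDP replicate 2, −1.82, or 3, −1.81). DESeq2 gave no adjusted p for Ier2 in any comparison, so its counts of called members leave that gene out. Fosb, Fos, Ier3 and Myc rest on few reads per library in PBS, which limits their precision. No paired analysis was possible because the labels number no replicates within groups.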
